A study of Mus musculus with 10 samples.

Results

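The genes described here are 9 of the p53 pathway, Trp53 itself, its antagonist Mdm2 and 7 genes that p53 is known to switch on (Cdkn1a, Ccng1, Phlda3, Bax, Bbc3, Pmaip1 and Trp53inp1). They were taken by symbol from the 33641 gene symbols of an RNA-seq series on mandibular prominences (MNPs), the paired outgrowths of the first arch from which the lower jaw develops. None of the 9 differed past the test threshold in mutants that lacked Hand2, or both Gli2 and Gli3, in the neural crest. Of all 17477 genes tested, only 2 (0.0114%) did so in each comparison with wild-type, so this says little about the 9 themselves. The polyadenylated RNA came from embryonic day 10.5 mice of the CD1 strain. The comparison was of 3 genotypes, namely wild-type (WT, replicates 3 and 4), Hand2 f/f with Wnt1-Cre+ (Hand2 cKO, replicates 1, 2 and 3) and the combination of Gli2 f/f, Gli3 f/f and Wnt1-Cre+ (Gli2/3 cKO, replicate 3 only). Of the 10 samples in the labels these 6 libraries were used, and the other 4 were not analysed here.

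Wnt1-Cre removes floxed alleles in the neural crest lineage, so the epithelium, the mesodermal core, the vessels and the blood of the same prominence kept the targeted genes. The sources used here do not state whether WT embryos carried the Cre or a floxed allele, or whether embryos were pooled for a library. If a pool was split, the p-values below measure only technical spread. In a dissected prominence, fewer cells of a type and less RNA per cell cannot be told apart.

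p53 is a transcription factor that is made continuously and degraded just as fast, mainly because the ubiquitin ligase Mdm2 marks it for destruction. DNA damage, ribosome defects and other stresses free it from Mdm2, and it then switches on genes for cell cycle arrest and for death through mitochondria, as well as Mdm2 itself. Neural crest cells of the face are known to be sensitive to p53, and in several disorders of craniofacial development their loss depends on it. Because p53 is controlled mostly as a protein, the RNA of its targets is the usual readout of its activity, and the RNA of Trp53 is not. Whether loss of Hand2, or of Gli2 and Gli3, moved such a death or stress readout was the question of the comparisons.

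The labels were checked first on the targeted genes, in CPM (counts relative to the scaled library size). Hand2 stood at 174 and 209 CPM in WT, at 13.4, 25.5 and 15.6 CPM in Hand2 cKO 1 to 3, and at 144 CPM in Gli2/3 cKO 3. Gli2 stood at 122.1 and 105.5 CPM in WT and at 58.3 CPM in Gli2/3 cKO 3. Gli3 stood at 175.7 and 145 CPM in WT and at 80.2 CPM in Gli2/3 cKO 3. That library was the lowest of the 6 for both, and Hand2 cKO 2 came next, at 80.2 CPM for Gli2 and 114 CPM for Gli3. Depth ran from 21420197 (WT 4) to 53326697 (Hand2 cKO 1) estimated counts. All 10 markers of neural crest mesenchyme lay above 1 CPM in every library, and their summed level ran from 1742 to 1939 CPM. Hand2 cKO 2 stood apart, because genes with long transcripts read low in it, with a slope of -0.32 in log2 counts for each doubling of length where the other libraries had -0.032 to 0.14. The main results that rest on it are also given without it, or once this length trend is removed. Between 39 and 12957 estimated counts lay behind each value of the 9 genes, all 9 passed the filter on low counts, and none was at 0 in any library.

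Sequence next to the start of these genes is shown because p53 acts through a 10-base half-site, usually in pairs, and no value in this series measures its binding. The RefSeq promoter windows searched (GRCm38.p6, a release of the assembly also called mm10, 250 bases before to 50 after each start) covered 7 of the 9 genes with 10 windows. Windows on the chromosome of Pmaip1 were left out of the search and of the counts over all genes. Exact matches to the p53 half-site consensus, searched on the strand of the gene (its reverse complement has the same form), stood in 5 of the 10 windows, against 2745 of 32851 windows (8.36%) over all genes. A pair of half-sites with at most 2 mismatches in 20 bases and at most 3 bases between them stood in 3 of the 10, those of Cdkn1a, Ccng1 and Bax, against 3.59% of all windows. The stretches around these matches follow, 5′ to 3′ on the strand of the gene, with the half-sites and pairs in capitals.
Trp53, chr11:69580264-69580313, plus strand: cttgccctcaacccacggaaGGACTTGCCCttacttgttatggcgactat
Mdm2, chr10:117710915-117710964, minus strand: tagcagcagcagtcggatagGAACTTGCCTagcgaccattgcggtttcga
Cdkn1a, chr17:29090886-29090967, plus strand: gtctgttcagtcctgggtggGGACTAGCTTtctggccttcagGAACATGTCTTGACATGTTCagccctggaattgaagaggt
Ccng1, chr11:40755442-40755501, minus strand: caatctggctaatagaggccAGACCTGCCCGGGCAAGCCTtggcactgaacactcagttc
Bax, chr7:45467070-45467130, minus strand: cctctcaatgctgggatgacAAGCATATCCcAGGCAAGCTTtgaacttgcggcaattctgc
The match began 75 bases before the start in Trp53 and 186 bases before it in Mdm2. Cdkn1a has 2 listed starts, 2790 bases apart, and the window of the second held no exact half-site and no pair. In the window of the first, a half-site began 73 bases before the start, and a pair without a spacer ended 32 bases before it. That pair has 1 mismatch, as do the pair of Ccng1, 195 to 176 bases before its start, and the pair of Bax, which holds a spacer of 1 base, 212 to 192 bases before its start. The windows of Phlda3 and Bbc3 held no exact half-site. In a check of the bases just after each start, those of these windows were not found in a GENCODE transcript of the gene. Those of all other windows were. Whether the windows of Phlda3 and Bbc3 flank a start in use is therefore not settled. A match is a description of the letters in these windows and not of binding.

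The 9 genes differed widely in level. Per length, in TPM (reads divided by transcript length and scaled to a common total), Trp53 came first in WT at 259 ± 13.8 TPM (SD, n = 2, as for each WT value here). Bax, which permeabilises the mitochondrial outer membrane, followed at 144 ± 9.77 TPM. Mdm2 came next at 58.7 ± 7.98 TPM, and the ranges of these 3 over the 6 libraries did not overlap. Phlda3, an inhibitor of Akt signalling, had 17.8 ± 0.998 TPM and Ccng1, a cyclin that binds a phosphatase subunit acting on Mdm2, 16.9 ± 1.90 TPM. Their WT values overlapped. Trp53inp1, a nuclear and autophagy-linked cofactor of p53, had 10.6 ± 4.08 TPM and Cdkn1a, the p21 inhibitor of cyclin-dependent kinases, 9.80 ± 0.00385 TPM, and these overlapped too. Lowest were the BH3-only death genes Bbc3 (Puma) at 6.63 ± 1.20 TPM and Pmaip1 (Noxa) at 1.63 ± 0.265 TPM. Bax, an effector of death, thus stood near the top of this order in WT, and the 2 BH3-only genes that act upstream of it at the bottom.

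Trp53 (chromosome 11, 69580359 to 69591873, plus strand, coordinates of GENCODE M21 on mm10 here and below) spanned 1.23-fold over the 6 libraries and 1.06-fold outside Hand2 cKO 2. It had 231 and 235 CPM in WT, then 245, 284 and 239 CPM in Hand2 cKO 1 to 3, and 244 CPM in Gli2/3 cKO 3. All mutant libraries lay above both WT libraries, but when the length trend was removed (a smooth curve of each library's log2 counts on transcript length, taken out within the fit) Trp53 in Hand2 cKO 2 came to 234 CPM, the lowest of the 6 and below the 245 and 238 CPM of WT. In Hand2 cKO against WT its log2 fold change was 0.14 ± 0.16 (every such value below is given ± SE), with a 95% interval from -0.25 to 0.52 (adjusted p = 0.786 by the quasi-likelihood test of edgeR, as for every adjusted p below), and it was 0.041 ± 0.093 without Hand2 cKO 2 and 0.029 ± 0.086 on removal of the length trend. For Gli2/3 cKO against WT it was 0.066 ± 0.21, with an interval from -0.44 to 0.57 (adjusted p = 1). With the trend left in, Trp53 was the 1 gene of the 9 whose 3 Hand2 cKO libraries all lay above both WT libraries. That order was held by 15.3% of the 17477 genes tested. None of the 9 lay below both in all 3, an order held by 15.7%. On removal of the trend, Ccng1 and Phlda3 lay above both WT libraries in all 3 and Trp53 did not. The share of all genes with that order was not counted there.

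Mdm2 (chromosome 10, 117688875 to 117710758, minus strand), both the brake on p53 and its target, had 70.4 and 62.6 CPM in WT, and its level in Hand2 cKO 1 to 3 was 67.3, 64.9 and 69.7 CPM. The Hand2 cKO libraries lay inside the WT range, and Gli2/3 cKO 3, at 75.3 CPM, was the highest of the 6. Against WT, the log2 fold change of Mdm2 was 0.017 ± 0.14 in Hand2 cKO (interval from -0.32 to 0.35), or from 0.801-fold to 1.28-fold of WT, and 0.18 ± 0.18 in Gli2/3 cKO (interval from -0.27 to 0.63). When the length trend was removed, the Hand2 cKO value turned to -0.011. Mdm2 had the narrowest interval of the 9 genes in both comparisons against WT.

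Beneath that steady total, the transcripts of Mdm2 were apportioned differently between libraries. The 2 protein-coding transcripts took 78.9% and 75.6% of its estimated counts in WT 3 and 4, 76.8% and 79.7% in Hand2 cKO 1 and 3, 49.8% in Hand2 cKO 2 and 63.9% in Gli2/3 cKO 3. One transcript annotated for nonsense-mediated decay, the pathway that destroys RNA with an early stop codon, took 44.2% in Hand2 cKO 2, 13.0% in Gli2/3 cKO 3 and 8.83% in Hand2 cKO 1. In Hand2 cKO 3 its share was 2.68%, in WT 3 it was 1.21%, and in WT 4 the program assigned it 0.0025 estimated counts. The library with the largest share was the one that stands apart in transcript length. Coding Mdm2 RNA was lowest in Hand2 cKO 2, at 32.3 CPM, against 47.3 to 55.5 CPM in the other 5 libraries. Shares among overlapping transcripts are estimates of the authors' program, and no test was made of them.

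**Figure D1:**
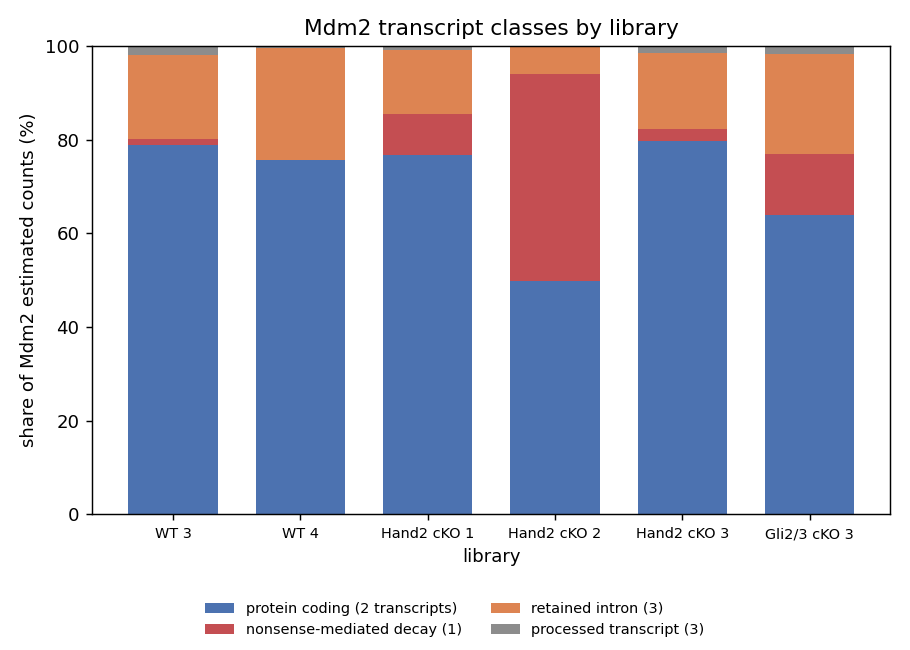
Share of Mdm2 estimated counts (percent, vertical axis from 0 to 100) by annotated transcript class in each of the 6 libraries (horizontal axis). The protein-coding share was 49.8% in Hand2 cKO 2 and 63.9% in Gli2/3 cKO 3, and between 75.6% and 79.7% in the other 4 libraries.

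With the length trend left in, Ccng1 (chromosome 11, 40748552 to 40755311, minus strand) lay above both WT libraries in every mutant library except Hand2 cKO 2. It had 30.1 and 27.8 CPM in WT, then 37.7, 29.9 and 35.3 CPM in Hand2 cKO 1 to 3, and 40.5 CPM in Gli2/3 cKO 3. Once the length trend was removed, every mutant library lay above both WT libraries. Hand2 cKO 2 was then the lowest mutant library at 32.3 CPM, while WT 3 read 29.1 CPM and WT 4 read 28.1 CPM. With the trend left in, Ccng1 lay inside the WT range in Hand2 cKO 2 and above that range in the other mutant libraries. Its log2 fold change was 0.24 ± 0.16 in Hand2 cKO (interval from -0.15 to 0.63, adjusted p = 0.723) and 0.48 ± 0.21 in Gli2/3 cKO (interval from -0.028 to 0.99, unadjusted p = 0.0600, adjusted p = 1 by edgeR). With the length trend of each library removed these became 0.27 ± 0.092 (unadjusted p = 0.0266, adjusted p = 0.328) and 0.50 ± 0.12 (unadjusted p = 0.00608, adjusted p = 0.290) in the same edgeR model. Without Hand2 cKO 2 they were 0.32 ± 0.097 (adjusted p = 0.472) and 0.47 ± 0.12 (adjusted p = 0.292). An adjusted p of 0.290 was the lowest that any of the 9 genes reached in any comparison under any alternative.

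Cdkn1a (chromosome 17, 29090976 to 29100727, plus strand), the classical arrest gene of p53, separated the lone Gli2/3 cKO library from the rest. It had 8.67 and 9.51 CPM in WT, then 8.06, 9.61 and 8.79 CPM in Hand2 cKO 1 to 3, and 12.9 CPM in Gli2/3 cKO 3. The WT and Hand2 cKO libraries were interleaved, and the Gli2/3 cKO library lay above all 5. In Hand2 cKO against WT the log2 fold change was -0.043 ± 0.18 (interval from -0.48 to 0.40), a range from 0.717-fold to 1.31-fold. The corresponding value in Gli2/3 cKO was 0.51 ± 0.24 (interval from -0.073 to 1.08, unadjusted p = 0.0763, adjusted p = 1 by edgeR), and against Hand2 cKO it was 0.55 ± 0.22 (unadjusted p = 0.0468, adjusted p = 0.897). Gli2/3 cKO 3 has no replicate, so its values borrow the spread of the other groups. The annotation places an unnamed transcript model, AC167363.2, on the opposite strand of Cdkn1a, and since the strand setting of the counting is not given, reads of the 2 cannot be told apart.

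Mdm2, Cdkn1a and Ccng1 were the 3 genes of the 9 with their highest value in Gli2/3 cKO 3, where 18.7% of all genes tested had theirs. Phlda3 and Pmaip1 had their lowest value there, as did 16.8% of all genes tested. Summed macrophage markers (8 genes, none at 0 in any library) were also lowest in that library, at 17.6 CPM against 24.4 to 31.6 CPM in the other 5, and their part in these values was not tested. Some neural markers were highest there too. Of 6 neural progenitor markers these were Sox1, Pax6, Otx2 and Hes5, at 0.84, 1.11, 1.68 and 0.77 CPM against at most 0.27, 0.70, 1.32 and 0.11 CPM in the other libraries (Sox1 and Hes5 were each at 0 in 1 library), while the sum of the 6, mostly Nes, was 97.2 CPM there and 97.6 to 150.1 CPM elsewhere. Of 7 neuron markers, Elavl3 (1.34 CPM against at most 0.70 CPM) and Pou4f1 (0.99 CPM against at most 0.60 CPM) were highest in that library, where the 7 summed to 29.9 CPM, against 29.7 to 37.9 CPM in the others. The part of neural cells in these values was not tested either. Erythroid markers (7 genes, none at 0) summed to 3046 CPM there, inside the range of 2411 to 7491 CPM of the others.

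**Figure D2:**
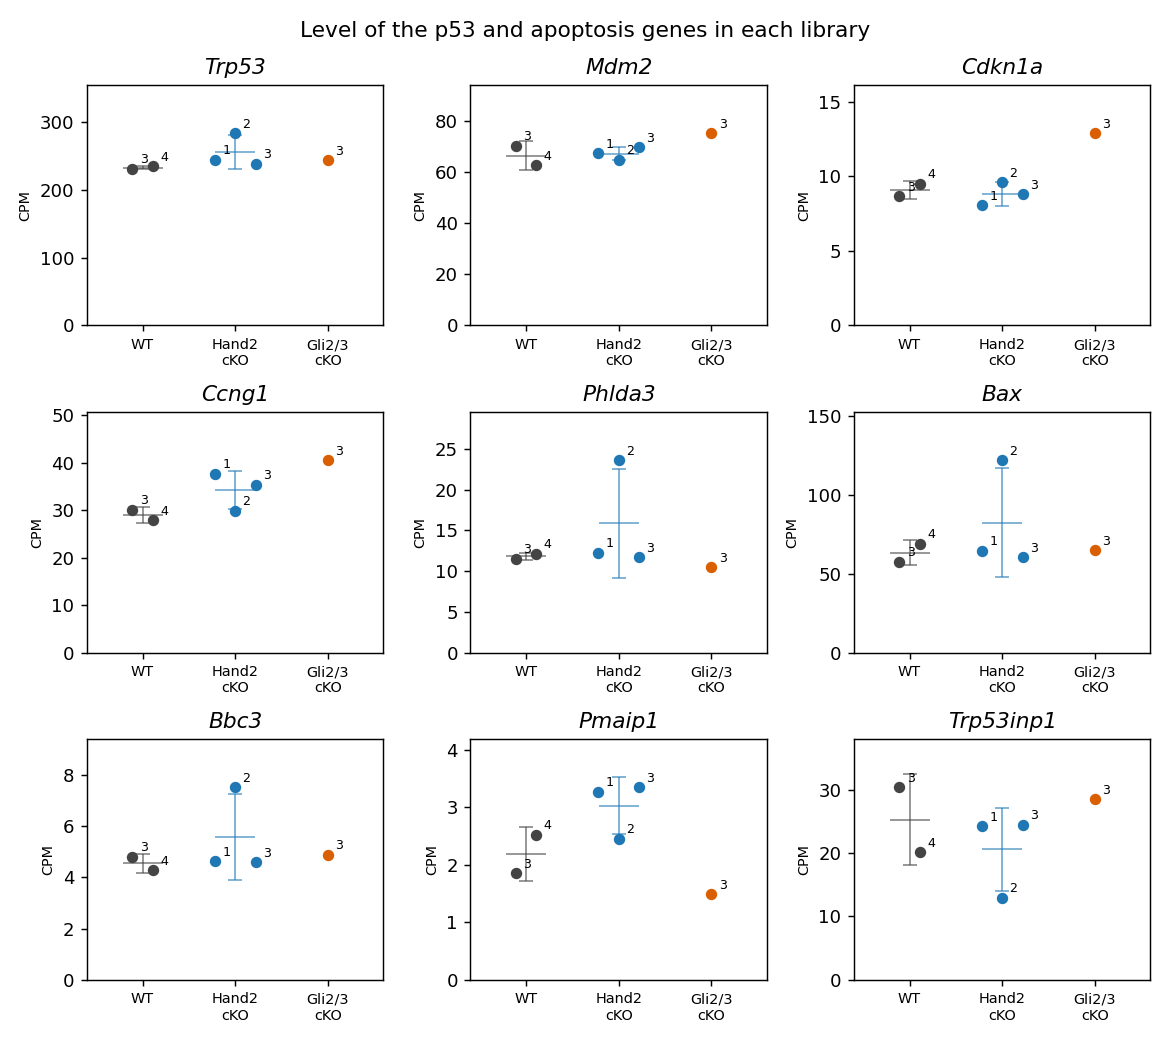
Level of each of the 9 genes (CPM, linear axis from 0, one panel per gene) in the WT, Hand2 cKO and Gli2/3 cKO libraries, where each point carries its replicate number and the bars give mean and SD for the groups of 2 and 3 libraries. Hand2 cKO 2 lies above the other libraries for Bax (122 CPM), Phlda3 (23.6 CPM) and Bbc3 (7.52 CPM) and below them for Trp53inp1 (13.0 CPM), and Gli2/3 cKO 3 is highest for Cdkn1a, Ccng1 and Mdm2.

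For the death genes Bax (chromosome 7, 45461697 to 45466898, minus strand) and Bbc3 (chromosome 7, 16308393 to 16318205, plus strand), 1 library stood away from the rest. Bax had 57.5 and 68.9 CPM in WT, then 64.5, 122 and 60.5 CPM in Hand2 cKO 1 to 3, and 65.0 CPM in Gli2/3 cKO 3. Outside Hand2 cKO 2 all values lay inside the WT range. The log2 fold change in Hand2 cKO was 0.38 ± 0.34 (interval from -0.44 to 1.20, edgeR adjusted p = 0.744), and it was 0.064 ± 0.12 once the length trend was removed, or -0.027 ± 0.11 without Hand2 cKO 2 (interval from -0.30 to 0.25). Bax in Gli2/3 cKO gave 0.040 ± 0.45 (interval from -1.05 to 1.13), and 0.12 ± 0.16 with the length trend removed (interval from -0.26 to 0.50). An overlapping gene model on the same strand, Gm45808, drew at most 7.72 estimated counts in any library.

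Bbc3, which frees Bax by binding its inhibitors, had 4.81 and 4.29 CPM in WT, then 4.63, 7.52 and 4.60 CPM in Hand2 cKO 1 to 3, and 4.90 CPM in Gli2/3 cKO 3. Again Hand2 cKO 2 was highest, and the other 5 libraries spanned 1.14-fold. Its log2 fold change in Hand2 cKO was 0.29 ± 0.29 (adjusted p = 0.767) and 0.0051 ± 0.19 without Hand2 cKO 2 (interval from -0.46 to 0.47). For Gli2/3 cKO the value was 0.10 ± 0.39 (interval from -0.85 to 1.06).

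Pmaip1, which neutralises Mcl1, behaved otherwise. It had 1.85 and 2.52 CPM in WT, then 3.27, 2.46 and 3.35 CPM in Hand2 cKO 1 to 3, and 1.49 CPM in Gli2/3 cKO 3. Hand2 cKO 1 and 3 lay above both WT libraries, Hand2 cKO 2 lay between them, and Gli2/3 cKO 3 lay below them. These are the fewest reads of the 9 genes, from 39 in Gli2/3 cKO 3 to 173 in Hand2 cKO 1. The log2 fold change was 0.48 ± 0.29 in Hand2 cKO (interval from -0.23 to 1.18, adjusted p = 0.723) and -0.54 ± 0.40 in Gli2/3 cKO (interval from -1.53 to 0.44, adjusted p = 1). In Hand2 cKO it was 0.60 ± 0.26 without Hand2 cKO 2 (interval from -0.039 to 1.23) and 0.445 ± 0.28 with the length trend removed. The difference between the mutants, Gli2/3 cKO against Hand2 cKO, was -1.02 ± 0.39 (interval from -1.97 to -0.064, unadjusted p = 0.0397), and it did not pass over all genes (edgeR adjusted p = 0.882, and 0.439 to 0.961 over the runs that each left out 1 library).

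Phlda3 (chromosome 1, 135766119 to 135769136, plus strand) had 11.5 and 12.2 CPM in WT, then 12.3, 23.6 and 11.8 CPM in Hand2 cKO 1 to 3, and 10.5 CPM in Gli2/3 cKO 3. Outside Hand2 cKO 2 the libraries spanned 1.17-fold. Its log2 fold change in Hand2 cKO was 0.42 ± 0.34 (adjusted p = 0.733), and it was 0.0085 ± 0.14 without Hand2 cKO 2 (interval from -0.33 to 0.35). Against WT, Gli2/3 cKO gave -0.17 ± 0.46 (interval from -1.30 to 0.96).

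Trp53inp1 (chromosome 4, 11156431 to 11174379, plus strand) had 30.4 and 20.2 CPM in WT, then 24.2, 13.0 and 24.5 CPM in Hand2 cKO 1 to 3, and 28.5 CPM in Gli2/3 cKO 3. Only Hand2 cKO 2 lay outside the WT range, on the low side. The log2 fold change was -0.30 ± 0.33 in Hand2 cKO (interval from -1.10 to 0.51, adjusted p = 0.780), and it was 0.029 without WT 3 and -0.071 ± 0.20 without Hand2 cKO 2. The value in Gli2/3 cKO was 0.17 ± 0.44 (interval from -0.91 to 1.25), and -0.091 without WT 4.

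Hand2 cKO 2 thus held the highest of the 6 values for Trp53, Phlda3, Bax and Bbc3 (4 of 9, and 32.1% of all genes tested) and the lowest for Trp53inp1 (1 of 9, and 32.0% of all genes tested). The order of the 9 genes in that library broadly followed transcript length. Against the mean of the other 5 libraries, on the log2 scale, Bax with 899 bases stood 0.95 higher, Phlda3 with 1406 bases 1.02 higher and Bbc3 with 1574 bases 0.69 higher. Trp53 with 1878 bases stood 0.25 higher. Cdkn1a (1886 bases), Pmaip1 (2727 bases) and Mdm2 (2847 bases) differed by 0.024, 0.041 and -0.087. At the other end, Ccng1 with 3512 bases differed by -0.18 and Trp53inp1 with 5314 bases by -0.96. The same trend ran through all genes with a mean above 2 CPM, whose median difference was 0.90 for transcripts up to 1000 bases and -0.47 for those above 4000. Across genes, Pearson's r between this difference and log2 length was -0.94 over the 9 genes and -0.56 over 12323 genes, all measured in the same libraries. Once the trend was taken out, r over the 9 was -0.74. Hand2 cKO 2 then still held the highest value for Bax (81.1 CPM against 66.2 to 74.1 CPM), Phlda3 (17.7 CPM against 11.2 to 12.8 CPM) and Bbc3 (5.83 CPM against 4.34 to 5.21 CPM), as it did for 25.9% of all genes tested, and it held the lowest of the 6 for Trp53, Mdm2, Cdkn1a and Trp53inp1 (4 of 9, and 25.8% of all genes tested).

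**Figure D3:**
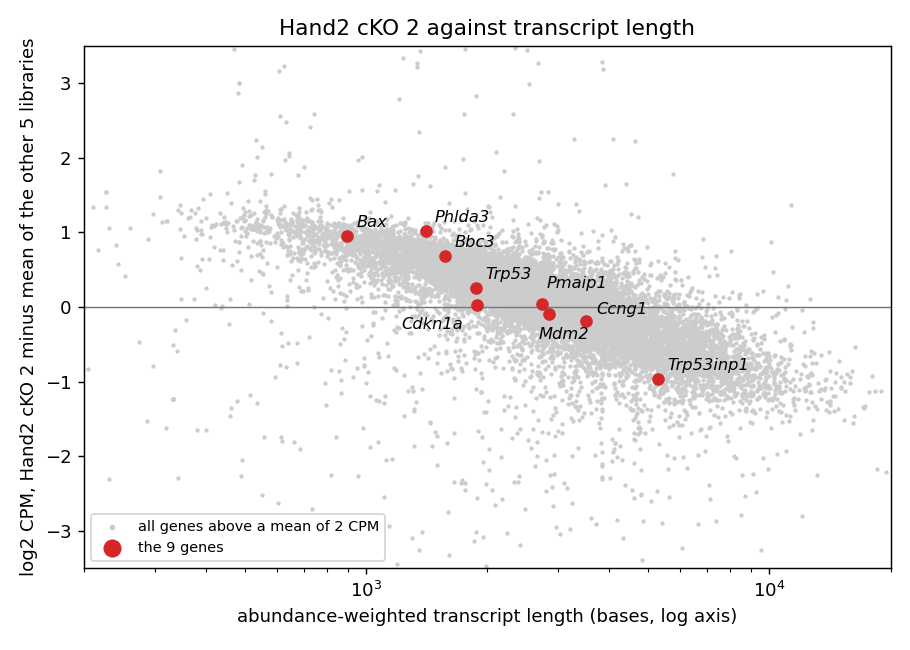
Difference in log2 CPM between Hand2 cKO 2 and the mean of the other 5 libraries (vertical axis) against transcript length in bases (log axis), for genes with a mean above 2 CPM (grey) and the 9 genes (red). Short genes such as Bax (0.95) lie high and Trp53inp1, the longest of the 9, lies low (-0.96), along the slope of the grey points. Genes that differ by more than 3.5 are not drawn.

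Taken over the 9 genes, Hand2 cKO against WT gave no call, by edgeR (2 of 17477 genes called, 0.0114%) or by DESeq2 (181 called, 1.08%). A call required an adjusted p below 0.05 and a fold above 1.5. None of the 9 had an unadjusted p below 0.05 by edgeR in either direction, against 2.44% of all genes for higher and 4.02% for lower. Of the 9, 7 had a positive log2 fold change, with a median of 0.24 beside -0.00012 over all genes tested. Removing the length trend brought that median to 0.064, and leaving out Hand2 cKO 2 to 0.0085. Without that library Pmaip1 and Ccng1 still stood higher, at 0.60 and 0.32, and the other members lay between -0.12 and 0.041. The upper end of the 95% interval lay below a 2-fold increase for 5 of the 9 genes, and for 8 of the 9 either with the length trend removed or without Hand2 cKO 2, the exception being Pmaip1 with upper ends of 1.12 and 1.23 on the log2 scale.

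Gli2/3 cKO against WT, which shares the WT libraries with that comparison, gave no call among the 9 either, by edgeR (0.0114% of genes called) or by DESeq2 (0.661%). None had an unadjusted p below 0.05 by edgeR, against 1.63% of all genes for higher and 2.96% for lower. The values were positive for 7 of the 9, with a median of 0.10 beside 0.0012 over all genes. The upper end of the 95% interval lay below a 2-fold increase for 5 of the 9 genes, and reached 1.25 on the log2 scale for Trp53inp1. These intervals borrow the spread of the other groups. With the length trend removed the median was 0.12, the upper ends of all 9 intervals lay below a 2-fold increase, and 2 genes, Ccng1 and Cdkn1a, had a higher value with an unadjusted p below 0.05, against 4.48% of all genes for higher and 5.35% for lower in that fit.

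Between the mutants, in Gli2/3 cKO against Hand2 cKO, none of the 9 was called by edgeR (0.0343% of genes called) or by DESeq2 (0.731%). Cdkn1a was the 1 gene with an unadjusted p below 0.05 and a higher value in Gli2/3 cKO, against 2.86% of all genes, and Pmaip1 the 1 with a lower value, against 2.63%. The median was -0.069 beside -0.015 over all genes, and 0.056 with the length trend removed.

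**Figure D4:**
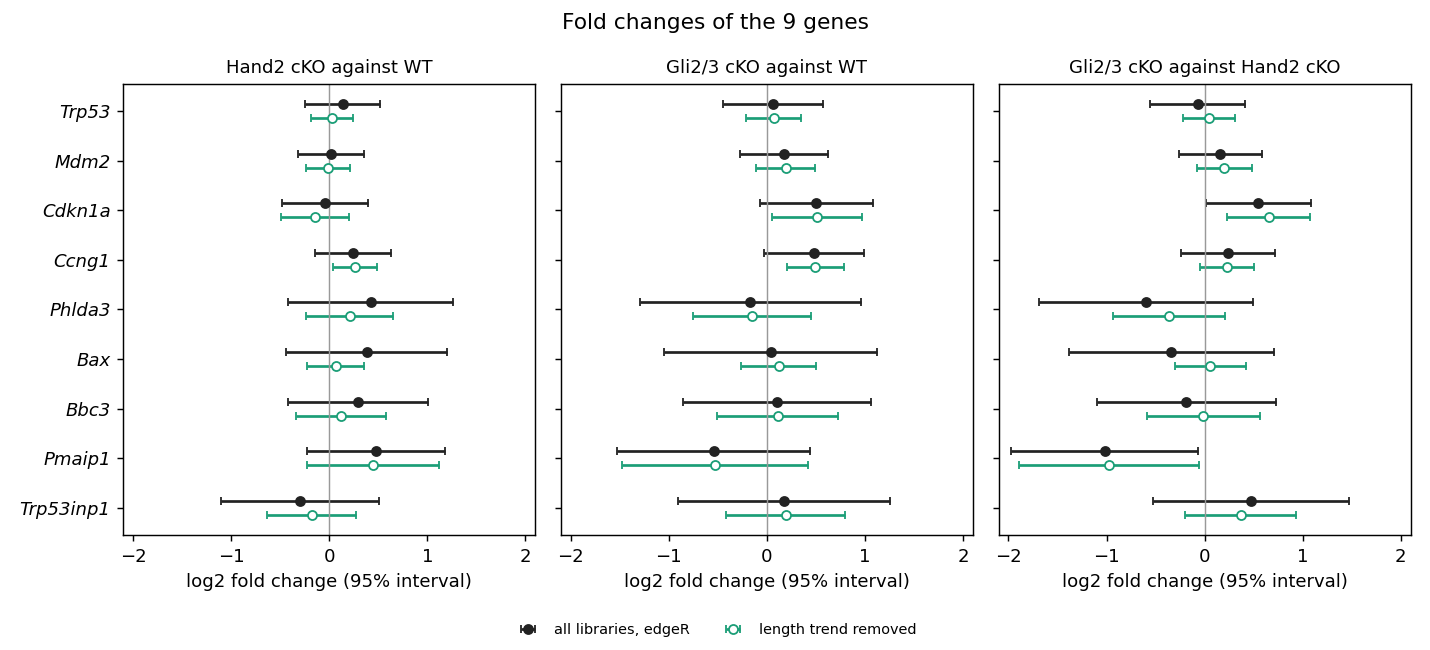
Log2 fold change with its 95% interval (horizontal axes) for each of the 9 genes in the 3 comparisons, from the edgeR model over all libraries (filled points) and with the length trend of each library removed (open points). Points of Trp53 and Mdm2 lie between -0.069 and 0.20, and the intervals of Bax, Phlda3 and Bbc3 narrow when the trend is removed.

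Further genes of the same responses were read from lists of other p53 targets, p53 regulators, BCL2 family genes, caspases and apoptosome genes, and stress genes. Across these 7 lists no gene was called in any of the 3 comparisons by edgeR or DESeq2. Of 28 other p53 target genes 26 were tested. In Hand2 cKO 19 of the 26 were positive, with a median of 0.11 (0.076 either with the length trend removed or without Hand2 cKO 2) and a range from -0.22 to 0.79. None had an unadjusted p below 0.05 by edgeR with the length trend left in. With it removed 2 had, both higher. Of the same 26, 14 were positive in Gli2/3 cKO, with a median of 0.027 and 1 gene with an unadjusted p below 0.05 in each direction. The higher one was Sesn2, a stress-induced inhibitor of mTORC1, with 16.6 and 14.5 CPM in WT, then 18.2, 17.1 and 15.2 CPM in Hand2 cKO 1 to 3 and 24.4 CPM in Gli2/3 cKO 3. That library lay above all others, and the log2 fold change against WT was 0.65 ± 0.22 (edgeR unadjusted p = 0.0259, adjusted p = 1). The lower one was Plk2, a kinase of the centriole cycle, with 50.6 and 53.7 CPM in WT, then 50.1, 42.8 and 41.3 CPM in the Hand2 cKO libraries and 34.0 CPM in Gli2/3 cKO 3, a log2 fold change of -0.62 ± 0.20 against WT (adjusted p = 0.974). Ddit4, which also restrains mTORC1, had 25.7 CPM in Gli2/3 cKO 3 against 34.6 to 44.7 CPM in the other libraries. Its log2 fold change between the mutants was -0.63 ± 0.21 (adjusted p = 0.814). In the lone library Sesn2 thus lay above WT and Plk2 below it, and others of the 26 targets also lay outside the WT values. Aen, for example, had 79.1 CPM there against 67.1 and 67.5 CPM in WT. On the other side, Sesn1 had 22.1 CPM against 25.0 and 28.4 CPM. Ddit4 was named for its difference between the mutants, but in Gli2/3 cKO 3 it also lay below both WT libraries. Its log2 fold change against WT was -0.50. Whether p53 targets as a group moved in 1 direction in that library was not tested.

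Genes that control p53 (Mdm4, Atm, Chek1, Chek2 and others, 12 of 13 tested) had no unadjusted p below 0.05 in any comparison by edgeR with the length trend left in. Once it was removed, this held in none of the 3 comparisons. In Hand2 cKO 1 of these genes was then higher at that p and 0 were lower. The median of the list was 0.045 in Hand2 cKO (0.077 with the length trend removed, 0.14 if Hand2 cKO 2 was left out) and 0.19 in Gli2/3 cKO, where 10 of the 12 were positive. The other BCL2 family genes (12 of 13 tested), which hold both guardians such as Bcl2 and Mcl1 and killers such as Bak1, likewise had none with the trend left in. With it removed, 1 was higher and 1 lower at that p in Hand2 cKO. Their medians were 0.022 and 0.0034, the first of which came to 0.060 and 0.019 under the same settings. Among 20 caspase and apoptosome genes, all tested, the median was 0.072 in Hand2 cKO (0.039 and 0.026 likewise), against 0.013 in Gli2/3 cKO. With the length trend removed, 2 of the 20 had an unadjusted p below 0.05 by edgeR in Hand2 cKO, both higher.

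Stress lists were described the same way. Genes of the integrated stress and unfolded protein responses (15 of 16 tested) had a median of 0.26 in Hand2 cKO, 0.16 once the length trend was removed, 0.056 without Hand2 cKO 2, and of 0.039 in Gli2/3 cKO, with no unadjusted p below 0.05. The 12 heat shock genes had medians of 0.12 and -0.069, and the first was 0.081 without the length trend and 0.012 without Hand2 cKO 2. With the length trend removed, 3 of the 12 were higher and 1 lower in Hand2 cKO at an unadjusted p below 0.05 by edgeR. With the trend left in, Hspd1, the mitochondrial chaperonin, was the 1 gene at that p. It had 688 and 679 CPM in WT, then 888, 1208 and 889.9 CPM in Hand2 cKO 1 to 3 and 976 CPM in Gli2/3 cKO 3. All mutant libraries lay above both WT libraries. Its log2 fold change in Hand2 cKO was 0.54 ± 0.20 (adjusted p = 0.723), and 0.37 without Hand2 cKO 2 (adjusted p = 0.371). The 12 oxidative stress genes had medians of -0.0093 and 0.040, with -0.049 and -0.011 for the first under those settings. Slc7a11, the cystine transporter, had 19.3 and 25.0 CPM in WT, then 18.1, 9.95 and 19.7 CPM in the Hand2 cKO libraries and 33.7 CPM in Gli2/3 cKO 3, where it was highest. The log2 fold change between the mutants was 1.08 ± 0.38 (adjusted p = 0.851), and 0.83 without Hand2 cKO 2.

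**Figure D5:**
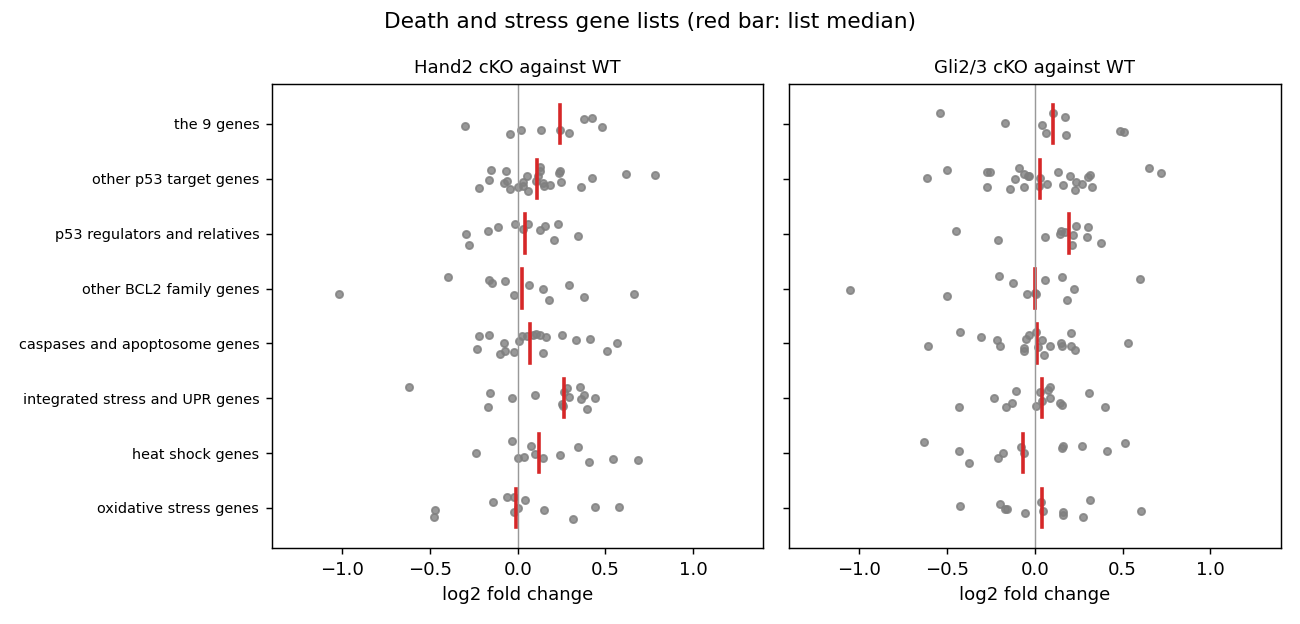
Log2 fold change against WT (horizontal axes) of every tested gene of the 9 and of the 7 other death and stress lists, in Hand2 cKO (left) and Gli2/3 cKO (right), with 1 grey point per gene and a red bar at the list median. The medians lie between -0.0093 and 0.26 for Hand2 cKO, and between -0.069 and 0.19 in Gli2/3 cKO, and none of the points is a call.

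The genes whose level tracked the 9 most closely were found from the mean log2 CPM of the 9 in each library, which was 4.40 and 4.39 in WT, 4.50, 4.65 and 4.49 in Hand2 cKO 1 to 3, and 4.50 in Gli2/3 cKO 3. Ccne1 (cyclin E1), Ifrd1, Ghitm, Got1 and Utp14a followed it with Pearson's r from 0.996 to 0.999 over the 6 libraries. All 5 were highest in Hand2 cKO 2. With 6 libraries such values are common, and 1027 of 11564 genes compared had r above 0.9.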

How the data were processed

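Bulk RNA-seq libraries of E10.5 MNPs were grouped by the genotype in their labels. The authors mapped paired-end reads to mm10 and estimated transcript abundance in Strand NGS, with DESeq2 run inside it (submitters' processing notes and the study's methods). The sources used here give no version, annotation or strand setting, and the sequencer differs between labels and methods. Expected counts were deposited, that is, estimated reads for each of 105129 transcripts, of which 47.7% to 56.8% per library lay over 0.01 from a whole number.

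The estimated counts were summed per gene symbol and rounded, since the planned test takes whole counts. The test was that of edgeR 4.0.16 (R 4.3.3, TMM scaling, filterByExpr, quasi-likelihood test, genotype as the only term, all 6 libraries, 3 residual degrees of freedom), with Benjamini-Hochberg adjustment over 17477 genes. A call needed an adjusted p below 0.05 and a fold above 1.5. DESeq2 1.42.0 was an alternative, as were RLE scaling, no filter, only the groups compared, leaving out each library, and removal of each library's trend on transcript length (a spline entered as an offset). TPM was computed from the counts and GENCODE M21 transcript lengths. Library pairs of a group differed far beyond sampling noise (chi-square per degree of freedom from 25.8 to 243), so none was merged. The fit was tested on simulated data. Counting precision follows from depths of 21420197 to 53326697. Promoter sequences are from RefSeq.

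The 9 genes and all lists were chosen with earlier results of these data known. Beside them, named genes were Hand2, Gli2 and Gli3, up to 4 genes per list and comparison with the smallest unadjusted p below 0.05, and the 5 genes best correlated with the mean of the 9. A gene that this rule selects is not reported here. Cop1 was found under its older symbol Rfwd2.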

Additional observations from a re-analysis of the deposited data

How the results depend on the processing

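No paired analysis was possible because WT, Hand2 cKO and Gli2/3 cKO libraries with files share only replicate number 3. None of the 9 genes was called in any comparison under any of the 10 alternatives, and 256 of the 270 recomputed log2 fold changes kept their direction. Genes called in Hand2 cKO against WT (2) came to 181 by DESeq2, 45 with no filter, 63 with the length trend removed, and 1 to 39 when 1 library was left out (39 without Hand2 cKO 2, 25 without Hand2 cKO 3, 22 without WT 3, 1 without WT 4 or Hand2 cKO 1). In Gli2/3 cKO against WT (2) they came to 123, 21 and 16 under the same settings, to 57 with only the groups compared, and to 0 (without WT 4) to 14 (without Hand2 cKO 2), with 12 without WT 3, 9 without Hand2 cKO 3 and 1 without Hand2 cKO 1. In Gli2/3 cKO against Hand2 cKO (6) they came to 136, 39 and 45, to 20 with only the groups compared, and to 2 (without Hand2 cKO 1) to 23 (without Hand2 cKO 2), with 20 without WT 3 and 18 without WT 4. The causes were not tested.

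The median log2 fold change of the 9 genes was 0.064, 0.12 and 0.056 in the 3 comparisons with the length trend removed. Leaving out 1 library gave 0.0085 (without Hand2 cKO 2) to 0.26, 0.077 (without WT 4) to 0.19 (without WT 3), and -0.12 (without Hand2 cKO 3) to 0.087 (without Hand2 cKO 2). Directions turned for some genes. In Hand2 cKO against WT, Mdm2 was -0.011 with the length trend removed and -0.065 to 0.10 with 1 library left out, where Cdkn1a ran from -0.12 to 0.024, Bax from -0.027 to 0.56 and Trp53inp1 from -0.56 to 0.029. In Gli2/3 cKO against WT, Bax ran from -0.084 to 0.18 and Trp53inp1 from -0.091 to 0.50. Between the mutants, Trp53 was 0.041 and Bax 0.056 with the length trend removed, and with 1 library left out Trp53 ran from -0.12 to 0.014, Bax from -0.52 to 0.057 and Bbc3 from -0.31 to 0.087. The values of the other named death and stress genes kept their direction under every alternative run. With 1 Gli2/3 cKO library its comparisons have no replicate check, and with 3 residual degrees of freedom a 2-fold increase lay inside the interval of several of the 9 genes.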
